A study of Mus musculus with 26 samples.

Results

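Organoids of mouse intestine given prostaglandin E2 (PGE2, 50 nM) for 3 days were compared with organoids given vehicle for 3 days, over all expressed genes. The comparison rested on 6 of the 26 RNA libraries of the series, chosen by their treatment and day: 3 of PGE2 at day 3 and 3 of vehicle at day 3. The organoids came from crypts of C57BL/6 mice and were grown in Matrigel, and every group shared a medium with EGF, Noggin, R-spondin, N-acetyl-L-cysteine, CHIR-99021 and Y-27632, per the labels. CHIR-99021 inhibits GSK3 and so turns on the Wnt pathway. The 12 other libraries used here were PGE2, vehicle and arachidonic acid (AA, 25 µM) at day 1 and AA at day 3, with 3 libraries each, and the 8 libraries of day 6 were not used. The treatment protocol names PGE2 while the text on the design names a dimethyl analogue of it, and the sources used here do not settle which of them was added. The labels do not say whether the libraries of a group were separate cultures, separate mice or repeats, so each p-value measures only the spread between these libraries.

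PGE2 is a lipid made from arachidonic acid by cyclooxygenases and PGE synthases, taken into cells and oxidised to an inactive form by 15-hydroxyprostaglandin dehydrogenase. In intestinal epithelium it acts mainly through the receptors EP2 and EP4, which couple to the G protein Gs, raise cyclic AMP and so activate protein kinase A and the transcription factor CREB. It is known for fluid secretion, for swelling of organoids into thin-walled cysts, and for its part in the repair of wounded mucosa. Organoids hold crypt base columnar stem cells and their progeny: absorptive enterocytes, goblet, Paneth, enteroendocrine and tuft cells.

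The vehicle libraries held 10143571 to 13457502 counts and the PGE2 libraries 12098793 to 14615719. Vehicle libraries had 20557 to 21468 genes with at least 1 count and PGE2 libraries 22323 to 23171, and the deeper libraries were mostly those of PGE2. Vehicle replicate 1 had 21378 genes at 13457502 counts. PGE2 replicates 1 and 2 had 22323 and 22980 genes at 12098793 and 13094189 counts. The part of depth in the number of genes was not tested. Of the counts, 5.43% to 10.9% fell in Gm26917 and Gm42418, loci that resemble ribosomal RNA, and 6.74% to 8.84% in mitochondrial ribosomal RNA, with overlap between the groups. On the first principal component of the libraries of days 1 and 3 (46.4% of the variance) vehicle lay at -49.5 to -48.7, AA at -1.84 to 1.05 and PGE2 at 38.8 to 39.7 at day 3. The labelled tissue matched its markers: Epcam, Cdh1, Krt8, Krt18, Vil1 and Cdx2 had between 1272 and 45997 counts in each of the 6 libraries. The fibroblast markers Col3a1 and Dcn were at 0 in all 6, and Col1a1, Col1a2, Pdgfra, Acta2, Ptprc, Cd3e, Cd79a, Itgam, Cdh5, Pecam1 and Elavl4 had at most 8 counts in any of them. In libraries of whole organoids, fewer cells of a type and less RNA per cell cannot be told apart.

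PGE2 changed the level of most expressed genes at day 3. Of 14850 genes tested, 4287 rose (28.9%) and 4465 fell (30.1%) at an adjusted p under 0.05, which is 58.9% in all. The direction with more calls changed with the processing. With only the vehicle and PGE2 libraries of day 3 in the fit, 4176 rose and 3956 fell. Without vehicle replicate 2, 4400 rose and 4328 fell. At least 2-fold rises (1416 genes, 9.54%) were more frequent than at least 2-fold falls (778 genes, 5.24%), and the median log2 fold change over all genes was -0.04. These shares are the background for every count of list members below. A gene near 0 with vehicle passed the filter on low counts only through libraries where it was higher. List members of that kind could hardly be counted as falls, which limits the comparison with the background. Levels are in CPM, counts scaled to a common library total, with their SD over 3 libraries. Log2 fold changes are given with a standard error derived by dividing their size by the square root of the test's F statistic. Where groups are said to overlap or not, that describes the named gene alone. The share of all genes tested whose groups did not overlap is not given here.

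The largest rises and falls below were taken where the mean log2 CPM was 1 or more and the groups did not overlap. Gkn1, gastrokine 1 of the stomach surface, held 2, 0 and 1 counts in the vehicle libraries and 252, 271 and 243 in the PGE2 libraries. From these counts the level was 224-fold higher (95% counting interval 76.5 to 1091). Mucl3, a mucin-like membrane protein, stood at 1.01, 0.177 and 0.750 CPM in the vehicle libraries and 72.7, 73.2 and 81.2 CPM in the PGE2 libraries. That is a log2 fold change of 6.80 ± 0.14 (adjusted p = 7.3e-26). Tff1, the trefoil peptide of gastric pits, rose from 0.469 ± 0.268 to 32.6 ± 1.13 CPM (6.16 ± 0.20). Tek, the angiopoietin receptor otherwise known from endothelium, rose from 0.162 ± 0.0626 to 35.1 ± 2.14 CPM (7.63 ± 0.20), while the endothelial markers Cdh5 and Pecam1 stayed at 0 to 8 counts per library. Dsg3, a desmosomal cadherin of stratified epithelium, rose from 2.08 ± 0.505 to 63.5 ± 2.58 CPM (4.92 ± 0.11). Il33, an alarmin cytokine, stood at 3.46, 2.39 and 3.56 CPM in the vehicle libraries and 90.5, 90.3 and 93.5 CPM in the PGE2 libraries. Its log2 fold change was 4.86 ± 0.11 (adjusted p = 3.2e-25). Further large rises were those of Zg16, a goblet cell lectin (4.58 ± 0.15), Fst, the activin antagonist follistatin (4.57 ± 0.20), the serpins Serpinb9b (4.36 ± 0.10) and Serpinb6b (4.14 ± 0.29), the cadherin Cdh16 (4.30 ± 0.19), Il5ra, a cytokine receptor subunit (4.64 ± 0.16), Prl2c3, of the prolactin family (4.27 ± 0.20), and Ctse, the gastric protease cathepsin E (4.18 ± 0.27).

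**Figure D1:**
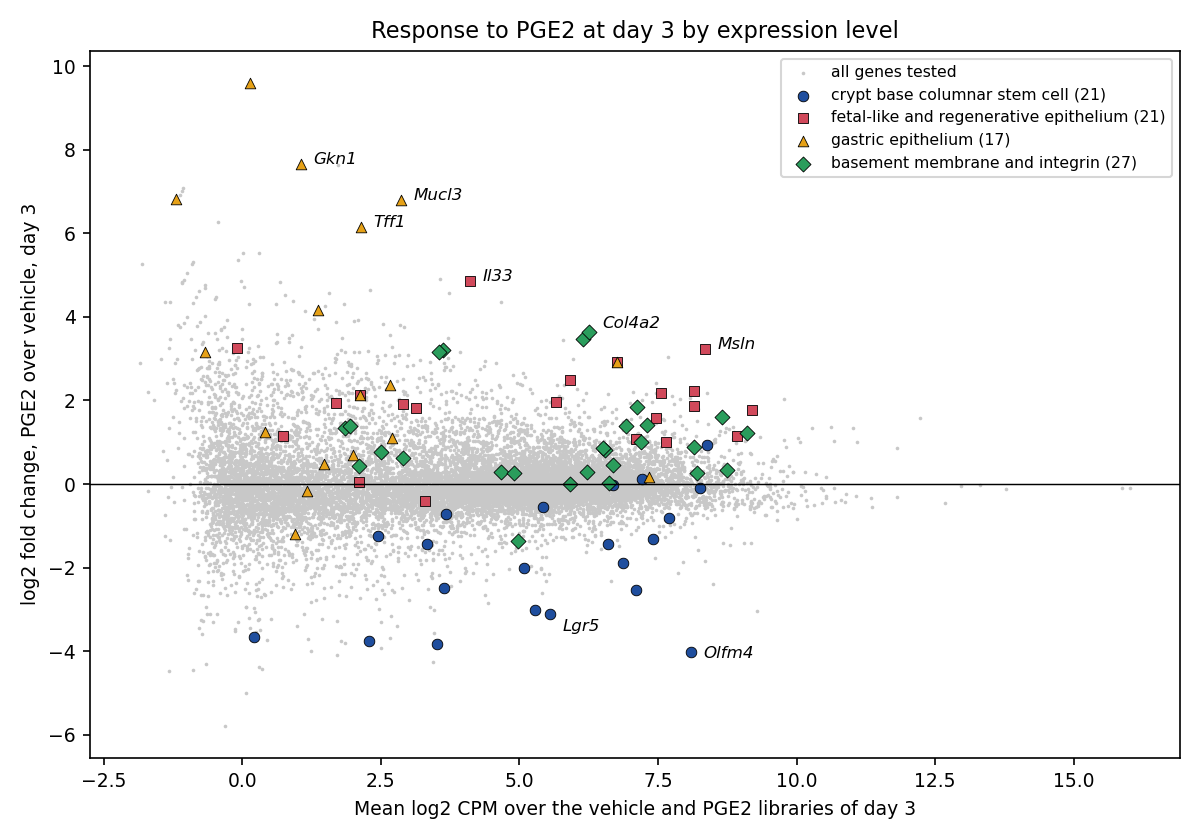
Each point is a gene tested, placed by its mean log2 CPM over the 6 libraries (horizontal) and its fitted log2 fold change of PGE2 over vehicle at day 3 (vertical), with members of 4 gene lists marked. Stem cell genes such as Olfm4 (-4.02) and Lgr5 (-3.11) lie low, and Il33 (4.86), Msln (3.22) and Col4a2 (3.63) lie high. Fitted values of Gkn1 and of the unlabelled triangles Gkn2 and Muc5ac rest on 3, 0 and 0 vehicle counts.

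Among the falls at that level of expression, the first by fold change was Aldh1l2, a mitochondrial enzyme of folate metabolism, which fell from 47.0 ± 1.37 to 2.40 ± 0.614 CPM (log2 fold change -4.27 ± 0.14). Slc7a2, a carrier of arginine, fell from 12.3 ± 1.39 to 0.716 ± 0.164 CPM (-4.09 ± 0.23). Olfm4, a secreted glycoprotein of crypt base columnar cells, stood at 1099.6, 1011 and 1189 CPM in the vehicle libraries and 77.5, 68.6 and 58.3 CPM in the PGE2 libraries. Its log2 fold change was -4.02 ± 0.10 (adjusted p = 3.8e-16). Further falls were those of Moxd1 (-3.92 ± 0.15), Igfbp4, a binding protein of insulin-like growth factors (-3.84 ± 0.13), Rnase1, a secreted ribonuclease (-3.81 ± 0.22), Fras1, a basement membrane protein (-3.76 ± 0.23), Nrn1, neuritin (-3.76 ± 0.17), Pcdh8, a protocadherin (-3.70 ± 0.33), Dpysl5 (-3.69 ± 0.15), the orphan nuclear receptor Esrrg (-3.58 ± 0.11), Cttnbp2 (-3.40 ± 0.18) and Tnfsf10, the death ligand TRAIL (-3.22 ± 0.26).

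Of 21 tested genes of crypt base columnar stem cells, 17 fell, 2 rose and 2 were not called, with a median log2 fold change of -1.43. Lgr5, the R-spondin receptor that marks these cells, stood at 148, 142 and 122 CPM in the vehicle libraries and 16.8, 18.3 and 12.8 CPM in the PGE2 libraries. The groups were far apart, at a log2 fold change of -3.11 ± 0.09 (adjusted p = 4.6e-19). Smoc2, a matrix protein, fell from 333 ± 19.8 to 57.4 ± 5.18 CPM (-2.54 ± 0.07). Aqp4, a water channel, fell from 111 ± 4.22 to 13.7 ± 1.84 CPM (-3.02 ± 0.07). Rgmb, a BMP co-receptor, fell from 223 ± 15.3 to 60.5 ± 3.79 CPM (-1.89 ± 0.06). Ascl2, the transcription factor that specifies the stem cell state, fell less, from 16.2 ± 0.903 to 9.90 ± 1.57 CPM (-0.72 ± 0.13). Sox9, a factor of stem and Paneth cells, was not called, at 103 ± 6.97 CPM with vehicle and 101 ± 3.01 CPM with PGE2. Prom1, the surface antigen CD133, rose from 240.5 ± 4.37 to 461 ± 5.42 CPM (0.94 ± 0.04).

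Members of the Wnt pathway, which maintains these cells, moved both ways: of 29 tested, 16 fell, 9 rose and 4 were not called (median -0.38). Among targets and feedback inhibitors, Axin2 fell from 268 ± 8.50 to 108 ± 1.88 CPM (-1.31 ± 0.05). Sfrp5, a secreted inhibitor, fell from 4.31 ± 0.833 to 0.196 ± 0.0816 CPM (-4.39 ± 0.38). Among receptors and ligands, Fzd2 fell from 3.23 ± 0.198 to 0.271 ± 0.109 CPM (-3.54 ± 0.34). Wnt9b fell from 2.28 ± 0.275 to 0.217 ± 0.0534 CPM (-3.30 ± 0.43), while Wnt4 and Wnt7b rose to 2.45 ± 0.438 and 2.49 ± 0.174 CPM (2.72 ± 0.38 and 2.86 ± 0.34). Ephb4, an ephrin receptor, fell (-1.08 ± 0.05). Ccnd1, cyclin D1, rose from 252 ± 20.5 to 611 ± 17.7 CPM (1.28 ± 0.05). In the Notch and secretory fate list, 11 of 22 fell and 7 rose. The ligand Dll1 (-0.93 ± 0.06) and the glycosyltransferase Lfng (-1.47 ± 0.12) fell, while the ligands Jag1 (1.15 ± 0.06) and Jag2 (1.47 ± 0.08) rose. Of the fate factors, Spdef of goblet cells rose (1.13 ± 0.10) and Neurog3 of endocrine progenitors fell (-1.16 ± 0.16).

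**Figure D2:**
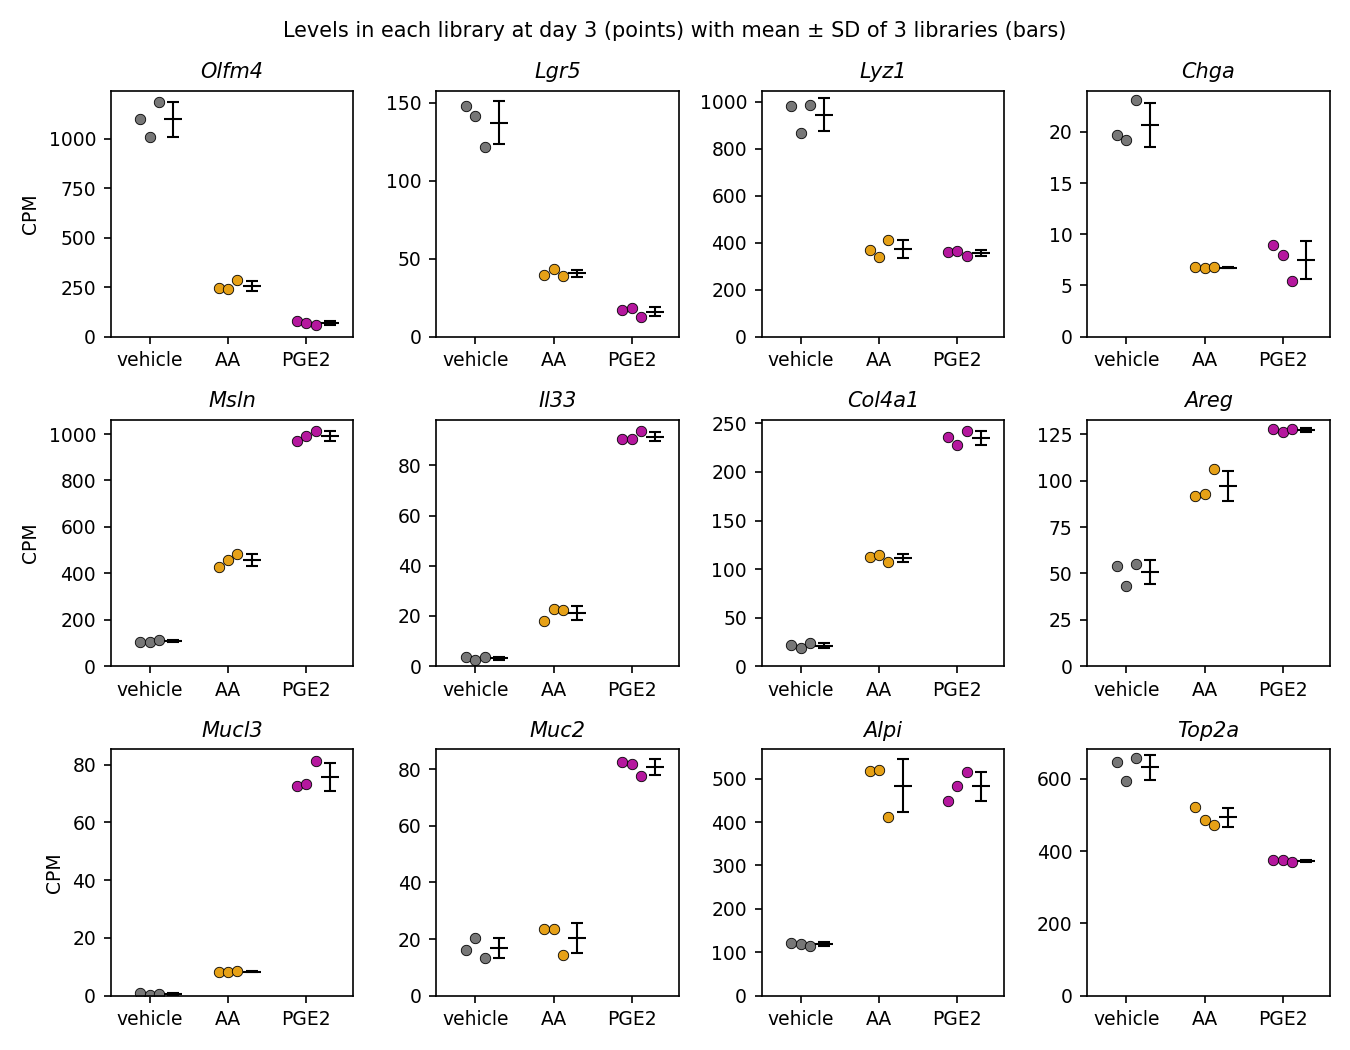
Each panel gives CPM (vertical, from 0) of a gene in the 3 vehicle, 3 AA and 3 PGE2 libraries of day 3, with the mean ± SD beside the points. Olfm4, Lgr5, Lyz1, Chga and Top2a lie lower with PGE2 than with vehicle and the other 7 genes higher. All of these genes passed the threshold, as did 58.9% of all genes tested, so their separation is not a result about all genes.

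Genes of fetal-like or regenerating epithelium were mostly higher: of 21 tested, 19 rose, 1 fell and 1 was not called (median 1.91). Their summed level was 1440 to 1710 CPM in the vehicle libraries and 5800 to 5910 CPM in the PGE2 libraries. Msln, mesothelin, a surface glycoprotein of mesothelium and fetal gut, stood at 103, 105 and 112 CPM in the vehicle libraries and 970.0, 992 and 1015 CPM in the PGE2 libraries, which did not overlap (log2 fold change 3.22 ± 0.05, adjusted p = 5.9e-28). Clu, clusterin, a chaperone of revival stem cells, rose from 88.6 ± 13.6 to 399 ± 11 CPM (2.17 ± 0.09). Anxa1, an annexin, rose from 149 ± 20.9 to 545 ± 0.897 CPM (1.87 ± 0.08). Ly6a, or Sca-1, a membrane protein, rose from 94.3 ± 10.1 to 199 ± 2.90 CPM (1.08 ± 0.07). Anxa10, an annexin shared with gastric epithelium, rose from 39.2 ± 3.31 to 298 ± 3.86 CPM (2.93 ± 0.07). Cd55, an inhibitor of complement, rose from 25.7 ± 0.567 to 100 ± 1.73 CPM (1.96 ± 0.06).

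Targets of YAP and TEAD, the transcription pair active in stretched and wounded epithelium, rose in 11 of 18 cases and fell in 2 (median 0.66). Amotl1, an angiomotin that binds YAP, rose from 6.23 ± 1.03 to 29.1 ± 0.235 CPM (2.22 ± 0.10). Ccn2, a matrix-associated growth factor, rose from 7.29 ± 0.252 to 28.7 ± 1.06 CPM (1.97 ± 0.10). F3, tissue factor, rose from 39.5 ± 5.05 to 131 ± 7.55 CPM (1.73 ± 0.08). Wwc1, the Hippo component Kibra, rose from 135 ± 7.05 to 222 ± 5.73 CPM (0.71 ± 0.05). Ccn1, another classical target, was not called, at 14.2 ± 0.815 CPM with vehicle and 14.7 ± 0.341 CPM with PGE2. In the EGF family and its feedback, 13 of 21 rose and 5 fell. The ligand Areg, amphiregulin, stood at 54.0, 43.1 and 54.9 CPM in the vehicle libraries and 128, 126 and 128 CPM in the PGE2 libraries, with every PGE2 library above every vehicle library (1.33 ± 0.07, adjusted p = 1.2e-16). Ereg, epiregulin, rose from 14.7 ± 2.05 to 51.9 ± 1.26 CPM (1.81 ± 0.08). Tgfa, another ligand, rose from 28.2 ± 0.928 to 57.1 ± 2.38 CPM (1.02 ± 0.06). The receptor Egfr rose from 74.3 ± 0.161 to 137 ± 4.23 CPM (0.88 ± 0.04). In the BMP and activin list, 13 of 23 rose and 6 fell. Rises included the ligand Bmp8b (1.83 ± 0.06), the receptor Tgfbr2 (1.13 ± 0.04), the antagonist Nbl1 (3.18 ± 0.17) and the targets Id1 (1.5 ± 0.10) and Id3 (1.59 ± 0.13), while the ligand Bmp7 fell (-2.20 ± 0.13).

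In the list of cyclic AMP signalling and CREB response, 22 of 43 genes rose, 11 fell and 10 were not called (median 0.45). Dusp1, a phosphatase of MAP kinases, stood at 3.03, 2.83 and 3.28 CPM in the vehicle libraries and 17.7, 17.3 and 17.1 CPM in the PGE2 libraries, with no overlap (2.51 ± 0.15, adjusted p = 3.9e-15). Nr4a1, an orphan receptor induced through CREB, rose from 7.25 ± 0.281 to 21.4 ± 0.886 CPM (1.55 ± 0.10). Fos rose from 14 ± 1.64 to 45.4 ± 2.48 CPM (1.71 ± 0.08). Its relative Fosl1 rose from 4.63 ± 0.440 to 16.0 ± 1.56 CPM (1.78 ± 0.12). Pck1, the gluconeogenic enzyme, rose from 0.452 ± 0.236 to 5.75 ± 0.330 CPM (3.58 ± 0.34). The phosphodiesterase Pde10a, which breaks down cyclic nucleotides, rose from 0.133 ± 0.0723 to 2.26 ± 0.204 CPM (3.93 ± 0.49). Pde4d, another phosphodiesterase, was not called, at 16.5, 29.6 and 17.1 CPM in the vehicle libraries and 24.6, 29.5 and 24.7 CPM in the PGE2 libraries, where the groups overlapped. It was called higher when vehicle replicate 2 was left out (0.64, adjusted p = 1.94e-06).

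The full CRE, the palindrome that CREB binds, was searched as TGACGTCA in windows from 250 bases before to 50 bases after gene starts, taken from RefSeq on build GRCm38.p6. It lay in 1.79% of 32851 windows, in 3.00% of the 12995 windows of tested genes, in 1.35% of those of genes that rose at least 2-fold and in 1.97% of those of genes that fell at least 2-fold. Of the 190 genes named by rule, 140 had a window, and 4 held the full CRE within 150 bases before the start. Those stretches are shown because 3 belong to genes that rose and 1 to a gene that fell. Capitals mark the CRE.
Mucl3: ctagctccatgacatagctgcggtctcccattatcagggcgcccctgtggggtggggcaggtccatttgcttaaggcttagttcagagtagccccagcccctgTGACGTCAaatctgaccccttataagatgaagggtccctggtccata
Dusp1: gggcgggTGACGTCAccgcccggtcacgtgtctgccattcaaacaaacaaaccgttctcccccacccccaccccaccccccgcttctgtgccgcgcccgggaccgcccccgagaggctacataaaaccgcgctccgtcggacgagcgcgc
Areg: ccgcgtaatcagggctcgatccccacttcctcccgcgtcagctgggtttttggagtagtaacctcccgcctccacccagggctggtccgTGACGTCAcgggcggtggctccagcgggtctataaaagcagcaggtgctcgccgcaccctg
Chgb: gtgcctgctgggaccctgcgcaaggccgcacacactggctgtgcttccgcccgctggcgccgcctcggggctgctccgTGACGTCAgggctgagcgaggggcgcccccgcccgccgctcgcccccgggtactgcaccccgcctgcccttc
They lie at chr17:35643696-35643845 (minus strand), chr17:26508473-26508622 (minus strand), chr5:91139449-91139598 (plus strand) and chr2:132781492-132781641 (plus strand), and the CRE opens 47, 143, 61 and 72 bases before the start. Mucl3, Dusp1 and Areg had log2 fold changes of 6.80, 2.51 and 1.33. Chgb, a chromogranin, had -2.04. The AP-1 motif TGANTCA, which the proteins of the Fos family bind with Jun, lay in 5.36% of the windows of tested genes, in 10.6% of the windows of genes that rose at least 2-fold and in 5.90% of those that fell. The TEAD motif ACATTCC lay in 2.93%, 4.68% and 3.63% of the same windows, and the TCF/LEF motif ATCAAAG in 2.66%, 2.78% and 4.24%. Both strands were searched, the 8 letters of the CRE hold no AP-1 match, and a match is a description of letters only.

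Genes that make, sense and remove prostanoids moved as well: 12 of 23 rose and 6 fell. Ptgs2, the inducible cyclooxygenase, stood at 3.24, 3.10 and 4.22 CPM in the vehicle libraries and 15.2, 15.9 and 15.4 CPM in the PGE2 libraries (2.15 ± 0.14, adjusted p = 2.2e-14), with no overlap. Ptges, a PGE synthase, rose from 1.04 ± 0.542 to 9.42 ± 1.06 CPM (3.11 ± 0.24). The uptake carrier Slco2a1 rose from 2.62 ± 0.355 to 22.7 ± 0.905 CPM (3.10 ± 0.14). Hpgd, the dehydrogenase that inactivates PGE2, rose from 11.8 ± 3.05 to 20.3 ± 1.51 CPM (0.77 ± 0.14). The receptor Ptger4 (EP4) rose slightly, from 17.4 ± 1.01 to 22.9 ± 1.67 CPM (0.39 ± 0.09), and the receptor Ptger2 (EP2) had too few counts to be tested. Ephx2, an epoxide hydrolase, rose (1.42 ± 0.07), as did Cyp4f14, which hydroxylates leukotrienes (0.90 ± 0.06).

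**Figure D3:**
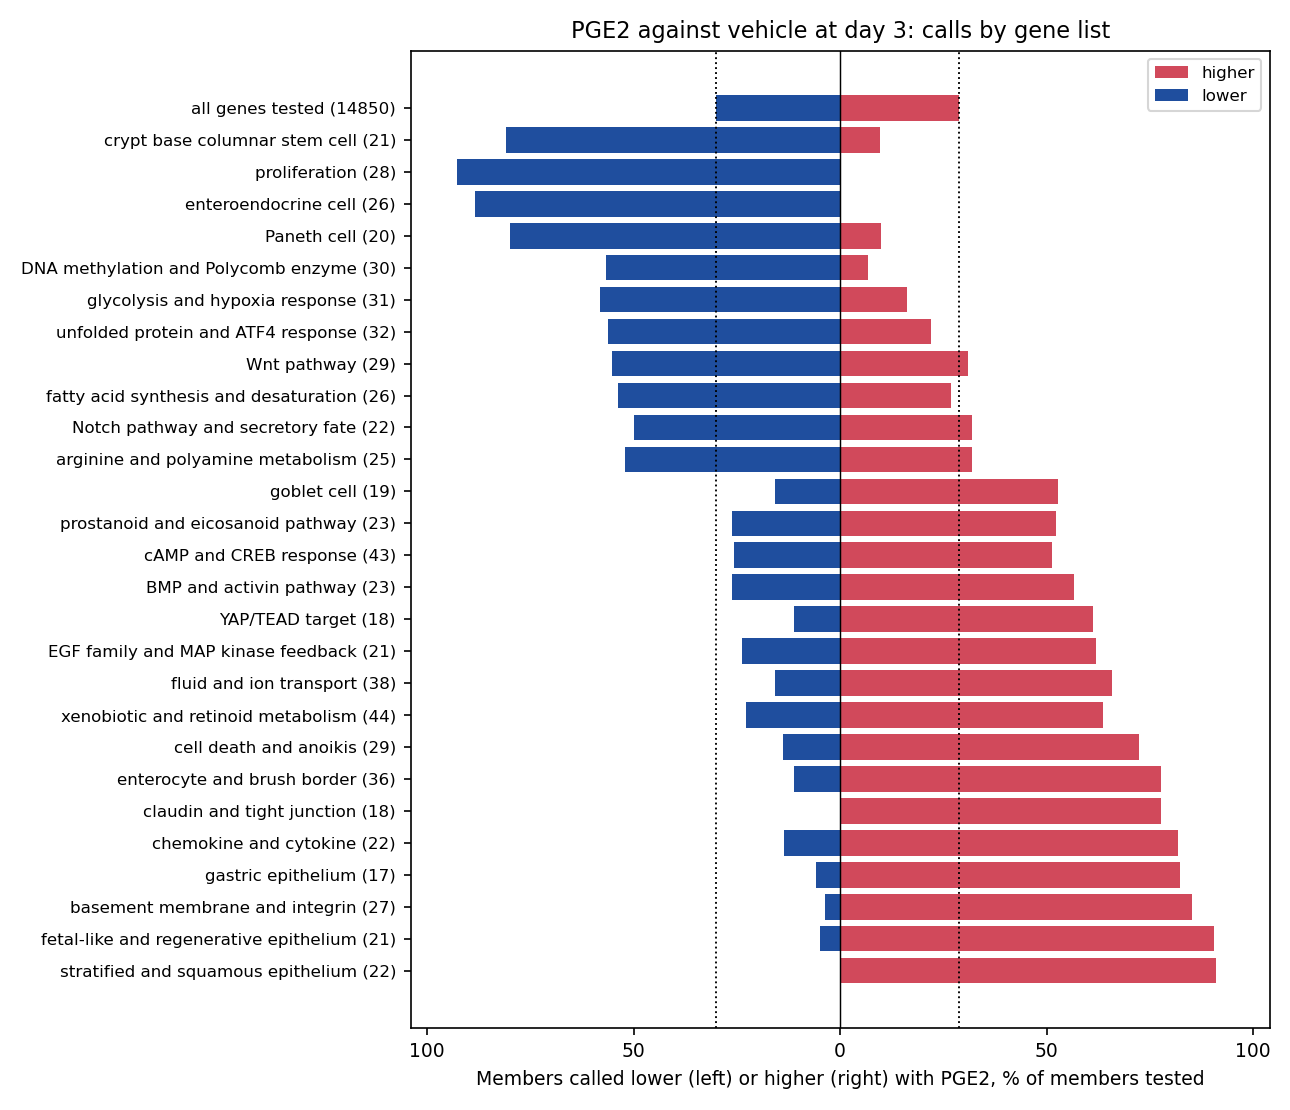
Bars give the share of each list's tested members (number in parentheses) called higher (right) or lower (left) with PGE2 than with vehicle at day 3, and the dotted lines mark the shares over all genes tested, 28.9% and 30.1%. Stem cell, proliferation, enteroendocrine and Paneth lists extend to the left, and squamous, fetal-like, basement membrane and gastric lists to the right.

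Genes of gastric epithelium rose in 14 of 17 tested cases and fell in 1 (median 2.36, also with genes at 0 set to their lower bound). Of 28 members, 11 were not tested. Members near 0 with vehicle, such as Gkn1, Gkn2 and Muc5ac, passed the filter only through treated libraries, so they could hardly be counted as falls. Gkn2, a partner of Gkn1, had 0 counts in each vehicle library and 96, 99 and 116 in the PGE2 libraries, at least 91.1-fold higher against a floor of 3 counts over the vehicle group. Muc5ac, the mucin of gastric surface cells, had 0 counts with vehicle and 10, 21 and 14 with PGE2, at least 13.2-fold higher. Cldn18, a claudin of stomach, rose from 2.71 ± 0.360 to 13.9 ± 1.40 CPM (2.36 ± 0.15). Ctse rose from 0.554 ± 0.278 to 9.81 ± 0.629 CPM. Gkn3, a gastrokine, fell from 2.76 ± 0.554 to 1.21 ± 0.563 CPM (-1.20 ± 0.32), and Sox2, Tff2 and Barx1 had too few counts to be tested. Of the identity factors of intestine, Cdx2 was not called, at 129, 119.8 and 119 CPM in the vehicle libraries and 125, 111 and 116 CPM in the PGE2 libraries, where the groups overlapped. Hnf4a was not called either, at 752, 703 and 747 CPM in the vehicle libraries and 713, 746 and 726 CPM in the PGE2 libraries, also with overlap. In that list 11 of 29 rose, 6 fell and 12 missed the threshold. Rises were found for Klf5 (0.88 ± 0.05), Klf4 (1.00 ± 0.08), Gata5 (0.79 ± 0.06) and Isx, an intestinal homeobox factor (2.99 ± 0.22).

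Stratified and squamous epithelium genes rose in 20 of 22 tested cases and fell in 0 (median 1.96), and another 12 members had too few counts to be tested. Tgm1, the transglutaminase of the cornified envelope, rose from 7.60 ± 1.00 to 54.4 ± 2.33 CPM (2.84 ± 0.09). Krt4, a keratin of oesophagus, rose from 8.67 ± 1.19 to 64.2 ± 2.00 CPM (2.90 ± 0.10). Emp1, a membrane protein, rose from 84.6 ± 7.26 to 331 ± 8.87 CPM (1.97 ± 0.06). Krt5, a basal keratin, reached 8.45 ± 1.46 CPM (3.02 ± 0.23), and Trp63, the factor of basal squamous cells, had too few counts to be tested.

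Basement membrane and integrin genes rose in 23 of 27 cases and fell in 1 (median 0.86). Col4a1, a chain of type IV collagen, stood at 21.7, 18.3 and 23.4 CPM in the vehicle libraries and 236, 228 and 242 CPM in the PGE2 libraries, far apart (3.48 ± 0.06, adjusted p = 8.5e-28). Its partner Col4a2 rose from 21.8 ± 2.55 to 269.7 ± 11 CPM (3.63 ± 0.06). Nid1, nidogen, rose from 3.82 ± 0.354 to 34.3 ± 1.27 CPM (3.17 ± 0.10). Itgb4, an integrin of hemidesmosomes, rose from 231 ± 4.64 to 704 ± 22.8 CPM (1.61 ± 0.05). Hspg2, perlecan, was the member that fell (-1.38 ± 0.15). Of 16 fibroblast and smooth muscle markers, the 2 that could be tested summed to 5.48 to 6.18 CPM with vehicle and 4.41 to 4.85 CPM with PGE2, with Col3a1 and Dcn at 0. Claudin and tight junction genes rose in 14 of 18 cases and fell in 0. Cldn2, a pore-forming claudin, rose from 272 ± 23.9 to 644 ± 16.6 CPM (1.24 ± 0.05). Tjp1, the scaffold ZO-1, rose from 164 ± 0.766 to 286 ± 4.00 CPM (0.80 ± 0.05). F11r, a junctional adhesion molecule, rose from 106 ± 8.56 to 179 ± 4.04 CPM (0.75 ± 0.05). In the matrix protease and plasminogen list, 12 of 16 rose and 3 fell, with the inhibitors Serpinb5 (2.65 ± 0.08) and Serpinb1a (1.92 ± 0.06) and the urokinase receptor Plaur (1.29 ± 0.05) rising.

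Markers of Paneth cells, of the crypt base, and of enteroendocrine cells were mostly lower with PGE2. Of 20 tested Paneth cell genes, 16 fell and 2 rose (median -2.12). Lyz1, lysozyme, stood at 984, 867 and 988 CPM in the vehicle libraries and 359, 367 and 343 CPM in the PGE2 libraries, without overlap (-1.41 ± 0.07, adjusted p = 2.5e-13). Mmp7, the protease that activates defensins, fell from 62.4 ± 4.36 to 32.3 ± 2.47 CPM (-0.95 ± 0.08). The defensins Defa30, Defa22 and Defa17 fell by 2.6, 2.58 and 2.33 on the log2 scale, but defensin genes are near-identical copies and the sources used here do not say how reads were divided among them. Of 26 enteroendocrine genes, 23 fell and 0 rose (median -1.64). Chga, chromogranin A, stood at 19.7, 19.2 and 23.1 CPM in the vehicle libraries and 8.95, 8.02 and 5.42 CPM in the PGE2 libraries (-1.48 ± 0.12, adjusted p = 1.4e-11). Chgb fell from 85.2 ± 6.24 to 20.7 ± 3.32 CPM (-2.04 ± 0.09). Tac1, the precursor of substance P, fell from 11.4 ± 0.581 to 2.15 ± 0.460 CPM (-2.41 ± 0.17). The hormone Gip fell from 8.80 ± 1.78 to 1.61 ± 0.548 CPM (-2.47 ± 0.21).

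Goblet cell genes rose in 10 of 19 cases and fell in 3 (median 0.31). Muc2, the main intestinal mucin, stood at 16.3, 20.4 and 13.4 CPM in the vehicle libraries and 82.6, 82.0 and 77.7 CPM in the PGE2 libraries, without overlap (2.27 ± 0.19, adjusted p = 1.9e-07). Zg16 rose from 2.63 ± 0.230 to 63.7 ± 2.48 CPM. Clca1, a secreted protein of goblet cells, rose from 12 ± 0.949 to 47.7 ± 2.04 CPM (1.99 ± 0.08). Agr2, a disulfide isomerase needed for mucin folding, rose from 54.0 ± 3.62 to 143 ± 4.82 CPM (1.40 ± 0.09). Ern2, a sensor of the unfolded protein response in goblet cells, rose from 16.1 ± 1.89 to 35.9 ± 0.736 CPM (1.16 ± 0.08). Only 9 of 21 tuft cell genes could be tested, of which 4 rose and 1 fell. Avil, advillin, rose from 1.76 ± 0.0894 to 21.0 ± 0.349 CPM (3.57 ± 0.15), and Alox5 (2.40 ± 0.33), Ptgs1 (2.69 ± 0.31) and Plcg2 (0.80 ± 0.07) rose too, whereas Pou2f3, the factor that specifies tuft cells, fell (-1.0 ± 0.28) and Dclk1 had 1 to 3 counts with PGE2 and 5 to 11 with vehicle.

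Enterocyte and brush border genes rose in 28 of 36 cases and fell in 4 (median 0.93). Alpi, intestinal alkaline phosphatase, stood at 122, 119 and 114 CPM in the vehicle libraries and 449, 484 and 515 CPM in the PGE2 libraries, without overlap (2.03 ± 0.07, adjusted p = 8.5e-17). Apoa1, an apolipoprotein of chylomicrons, rose from 73.7 ± 3.23 to 328 ± 19.5 CPM (2.16 ± 0.05). Mep1b, a meprin, rose from 46.0 ± 3.57 to 205 ± 5.78 CPM (2.16 ± 0.05). Cdhr2, a cadherin that links microvilli, rose from 160.3 ± 3.30 to 560.0 ± 18.2 CPM (1.80 ± 0.04). Krt20, a keratin of mature cells, rose from 29.8 ± 2.85 to 145 ± 10.5 CPM (2.28 ± 0.06). Fabp1, a fatty acid binding protein, fell slightly, from 82.1 ± 2.87 to 68.0 ± 7.86 CPM (-0.27 ± 0.08), and Slc2a5, the fructose carrier, fell more (-1.23 ± 0.13). In fluid and ion transport, 25 of 38 rose and 6 fell. Cftr, the chloride channel opened by protein kinase A, was not called, at 217, 253 and 219 CPM in the vehicle libraries and 234, 243 and 242 CPM in the PGE2 libraries, where the groups overlapped. It was called higher, by 0.13, when vehicle replicate 2 was left out (adjusted p = 0.0162). Slc12a2, the carrier that loads chloride on the blood side, fell from 1379 ± 44.5 to 769 ± 18.5 CPM (-0.84 ± 0.04). Ano1, a calcium-activated chloride channel, rose from 54.9 ± 0.682 to 156 ± 5.46 CPM (1.5 ± 0.05), as did the sodium-proton exchanger Slc9a2 (1.41 ± 0.06).

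Genes of DNA replication and mitosis were lower by small amounts: 26 of 28 fell, 0 rose and 2 were not called (median -0.43). Top2a, topoisomerase II alpha, stood at 647, 593 and 657 CPM in the vehicle libraries and 376, 374 and 369 CPM in the PGE2 libraries, without overlap (-0.76 ± 0.05, adjusted p = 1.1e-14). Mki67, the antigen of cycling cells, fell from 734 ± 16.1 to 557 ± 6.24 CPM (-0.40 ± 0.06), and the mitotic kinases Bub1b (-0.76 ± 0.05), Bub1 (-0.61 ± 0.05) and Aurkb (-0.68 ± 0.05) fell too. The summed level of the list was 4330 to 4620 CPM with vehicle and 3290 to 3360 CPM with PGE2. G1 regulators moved both ways, with 12 of 26 rising and 7 falling. Ccnd2, cyclin D2, rose from 979.5 ± 26.9 to 2530.5 ± 48.7 CPM (1.37 ± 0.05). Mxd1, a Myc antagonist, rose from 32.6 ± 1.48 to 107 ± 5.04 CPM (1.72 ± 0.05). Mycl fell from 40.7 ± 1.63 to 13.4 ± 0.434 CPM (-1.61 ± 0.08). Of 30 genes of DNA methylation and Polycomb, 17 fell, 2 rose and 11 were not called (median -0.36). The methyltransferases Dnmt3a (-1.05 ± 0.07) and Dnmt1 (-0.56 ± 0.05), Ezh2, which writes H3K27 methylation (-0.61 ± 0.05), and Cbx6, a Polycomb reader (-1.0 ± 0.07), were among those that fell. In the cell death list, 21 of 29 rose and 4 fell, with Gsdmd, the pore former gasdermin D, rising from 25.4 ± 1.62 to 109 ± 2.21 CPM (2.10 ± 0.06). Mdm2, the p53 ligase, rose from 88.9 ± 4.61 to 202 ± 5.12 CPM (1.19 ± 0.05). The survival protein Bcl2l1 rose from 43.0 ± 3.71 to 104 ± 1.93 CPM (1.27 ± 0.06). The death receptor Tnfrsf21 rose from 23.2 ± 1.04 to 48.8 ± 1.98 CPM (1.08 ± 0.08). Gsdmd and Tnfrsf21 are known to promote cell death, and Bcl2l1 and Mdm2 to restrain it.

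Metabolic lists were mixed. Arginine and polyamine genes fell in 13 of 25 cases and rose in 8. Cps1, carbamoyl phosphate synthetase, the entry enzyme of citrulline synthesis, stood at 1829, 1755 and 1808 CPM in the vehicle libraries and 216, 224 and 216 CPM in the PGE2 libraries, far apart (-3.04 ± 0.06, adjusted p = 7.1e-26). Oat, ornithine aminotransferase, fell from 661 ± 49.5 to 250.3 ± 16.0 CPM (-1.40 ± 0.06). Agmat, agmatinase, fell from 32.0 ± 2.34 to 7.96 ± 0.649 CPM (-2.01 ± 0.09). Slc6a8, the creatine carrier, rose from 48.6 ± 0.779 to 176 ± 2.17 CPM (1.85 ± 0.05). In fatty acid synthesis and desaturation, 14 of 26 fell and 7 rose. Fads1 and Fads2, the desaturases that lead to arachidonic acid, fell from 225 ± 8.47 to 44.9 ± 3.28 CPM and from 306 ± 16.9 to 128 ± 2.84 CPM (-2.33 ± 0.06 and -1.26 ± 0.05), and Agpat2, an acyltransferase, rose (1.37 ± 0.07). Fatty acid oxidation and PPAR targets rose in 17 of 34 cases and fell in 7: Acsl5, an acyl-CoA synthetase, rose (1.04 ± 0.05), while Acot1, a thioesterase (-2.13 ± 0.08), and the carrier Slc27a2 (-1.40 ± 0.07) fell. Of 30 cholesterol genes, 10 rose, 7 fell and 13 were not called. Abcg5, a sterol exporter, rose (0.81 ± 0.06).

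Of 44 xenobiotic and retinoid genes, 28 rose and 10 fell. Cyp3a13, an intestinal P450, rose from 61.4 ± 4.30 to 282 ± 5.86 CPM (2.20 ± 0.05). Cyp1b1, a target of the aryl hydrocarbon receptor, rose from 3.24 ± 0.450 to 25.2 ± 1.76 CPM (2.97 ± 0.12). The carboxylesterase Ces2a fell from 323 ± 8.34 to 94.1 ± 4.75 CPM (-1.78 ± 0.05). Aldh1b1, an aldehyde dehydrogenase, fell from 517 ± 33.8 to 173 ± 7.93 CPM (-1.58 ± 0.05). In the NRF2 and glutathione list, 19 of 35 rose and 10 fell, with Gclc, which limits glutathione synthesis, rising (1.10 ± 0.04), Gsta4, a transferase, rising (1.38 ± 0.05) and Mgst1, its microsomal relative, falling (-0.95 ± 0.06). Unfolded protein and ATF4 response genes fell in 18 of 32 cases and rose in 7: the factor Atf5 (-1.33 ± 0.07) and the serine and folate enzymes Phgdh (-0.91 ± 0.06), Shmt2 (-0.80 ± 0.05) and Mthfd2 (-0.81 ± 0.06) fell. Glycolysis and hypoxia genes fell in 18 of 31 cases and rose in 5, with falls of the regulator Pfkfb3 (-1.37 ± 0.09), the kinase Pdk1 (-1.35 ± 0.09) and Egln1, an oxygen sensor (-0.84 ± 0.07). The hexokinase Hk1 rose from 23.6 ± 2.06 to 92.2 ± 5.98 CPM (1.96 ± 0.07). Of 10 tested genes encoded in mitochondria, 2 fell and 8 were not called.

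Chemokines, cytokines and their receptors rose in 18 of 22 tested cases and fell in 3, and another 20 members had too few counts to be tested. Besides Il33, Il18, an inflammasome cytokine, rose from 5.11 ± 0.419 to 20.9 ± 1.28 CPM (2.04 ± 0.10). The receptor Il4ra rose from 23.3 ± 1.87 to 58.9 ± 2.43 CPM (1.33 ± 0.06). Ccl28, a mucosal chemokine, fell from 38.2 ± 1.90 to 11.6 ± 0.846 CPM (-1.71 ± 0.08). Of 25 tested genes of inducible defence, 16 rose and 3 fell, and another 12 members had too few counts to be tested. Pigr, the receptor that carries IgA across epithelium, fell from 869.5 ± 29.6 to 326 ± 2.58 CPM (-1.41 ± 0.05), as did Nlrp6, a cytoplasmic sensor (-1.39 ± 0.05). Fut2, a fucosyltransferase of mucosal glycans, rose from 9.90 ± 0.670 to 40.6 ± 2.46 CPM (2.03 ± 0.09). Interferon response genes rose in 12 of 17 tested cases and fell in 1, with Oasl1 (2.29 ± 0.11), Irf7 (2.11 ± 0.15), Mx1 (2.72 ± 0.22) and Oas1a (2.00 ± 0.17) among the rises. Another 15 of the 32 members had too few counts to be tested, among them Isg15, Ifit1, Ifit3, Oas2 and Usp18. Antigen presentation genes rose in 9 of 19 cases and fell in 4. Rises included H2-T23 (1.00 ± 0.07), Tapbp, the chaperone tapasin (0.83 ± 0.05), H2-Q2 (0.90 ± 0.09) and H2-D1 (0.70 ± 0.07), though class I genes of this family are close copies. Markers of immune cells were low: of 18, only Kit, Cd68 and Csf1r could be tested. Csf1r, a macrophage receptor, had 0 to 3 counts with vehicle and 11 to 14 with PGE2 (2.99 ± 0.55), and Cd68 reached 4.78 ± 1.10 CPM (1.24 ± 0.22), with Ptprc, the antigen of all leukocytes, at 0 to 3 counts in the 6 libraries. In the endothelial and neural list, 7 of 17 could be tested, of which 2 rose and 3 fell. Tek and S100b (1.96 ± 0.52) rose, and Tubb3 (-1.02 ± 0.31) and Snap25 (-0.78 ± 0.33) were among those that fell. Snap25 was near the threshold (adjusted p = 0.045). Snap25 lost the call without vehicle replicate 1 or 2 or any PGE2 replicate (adjusted p = 0.0682 to 0.121). The 3 tested immune markers summed to 18.4 to 21.7 CPM with vehicle and 12.7 to 14.3 CPM with PGE2. Kit, a receptor that also marks crypt secretory cells, held most of that sum and fell from 17.5 ± 1.39 to 7.78 ± 0.607 CPM (-1.17 ± 0.13). Without Kit the sum was 1.78 to 2.57 CPM with vehicle and 4.47 to 6.5 CPM with PGE2. The 7 tested endothelial and neural markers summed to 11.7 to 13.9 CPM with vehicle and 41.9 to 46.5 CPM with PGE2, a rise that Tek alone gave. Without Tek the sum was 11.6 to 13.7 CPM with vehicle and 9.04 to 10.3 CPM with PGE2. The part of these transcripts in the results above was not tested.

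The response at day 3 was set beside that at day 1, which rests on 6 other libraries and called 8306 of the 14850 genes (55.9%). Both days called 6391 genes, of which 6063 moved the same way (69.3% of the calls of day 3 and 73% of those of day 1) and 328 the opposite way. The difference between the responses was tested directly: it was positive, that is, more upward at day 3, for 1876 genes (12.6%) and negative for 1716 (11.6%). Which direction had more calls depended on the processing: there were 2221 positive and 1277 negative when scaled by total counts alone, but 1736 and 1845 with DESeq2's size factors and 1608 and 2015 under the stricter filter on low counts. Without mitochondrial genes and rRNA-like loci they numbered 1736 and 1815. Stem cell genes had a median of -1.43 at day 3 and -1.31 at day 1. The difference was called negative for 7 of 21, positive for 3 and not called for 11. Lgr5 differed by -0.33 ± 0.20 (adjusted p = 0.28), which did not pass. Igfbp4, in contrast, changed by -0.62 ± 0.12 at day 1 and -3.84 ± 0.13 at day 3, a difference of -3.22 ± 0.19 (adjusted p = 4.2e-14). The levels behind these ratios also differed between days. Lgr5 was at 26.7 CPM with vehicle and 3.81 CPM with PGE2 at day 1, and at 137 and 16.0 CPM at day 3. Olfm4 was at 87.7 and 6.01 CPM at day 1, and at 1100 and 68.1 CPM at day 3. Igfbp4 was at 16.4 and 10.7 CPM at day 1, and at 42.1 and 2.94 CPM at day 3. Changes between days within a group were not tested.

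Paneth and enteroendocrine genes, mostly lower at day 3, moved both ways at day 1. Of 20 Paneth genes 10 were higher and 4 lower at day 1, and of 26 enteroendocrine genes 10 were higher and 7 lower, where over all genes 4015 (27%) were higher and 4291 (28.9%) lower. The Paneth list had a median of 0.57 at day 1 and -2.12 at day 3, and the difference was called negative for 17 of 20 and positive for 1. Lyz1 stood at 248, 242 and 287 CPM with vehicle and 284, 239 and 255 CPM with PGE2 at day 1, with log2 fold change 0.00 ± 0.08, and the difference from day 3 was -1.41 ± 0.11 (adjusted p = 1.1e-09). In the enteroendocrine list the medians were 0.38 and -1.64, with 17 of 26 negative and 2 positive. Chga changed by 0.88 ± 0.15 at day 1 and -1.48 ± 0.12 at day 3, and Tac1 by 1.12 ± 0.21 and -2.41 ± 0.17, so that both rose at day 1 and fell at day 3. The proliferation list moved further down, from a median of -0.13 to -0.43, with 20 of 28 differences negative and 0 positive.

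Absorptive genes went the other way. The enterocyte list had a median of -0.22 at day 1 and 0.93 at day 3, and the difference was positive for 30 of 36 and negative for 0. Alpi changed by 0.43 ± 0.07 and 2.03 ± 0.07, a difference of 1.60 ± 0.10 (adjusted p = 4.6e-11), and Fabp1 by -1.90 ± 0.10 and -0.27 ± 0.08 (1.63 ± 0.13). The xenobiotic list went from -0.50 to 0.44, with 34 of 44 differences positive and 0 negative, and the fatty acid oxidation list from -0.32 to 0.22, with 25 of 34 positive and 1 negative. Hpgd fell at day 1 (-1.03 ± 0.15) and rose at day 3 (0.77 ± 0.14), a difference of 1.80 ± 0.21 (adjusted p = 3.8e-07). Zg16 rose by 1.10 ± 0.18 at day 1 and 4.58 ± 0.15 at day 3, and Tff1 by 3.57 ± 0.26 and 6.16 ± 0.20.

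Of 18 YAP/TEAD genes, 15 were higher with PGE2 at day 1 and 11 at day 3. The list had a median of 1.55 at day 1 and 0.66 at day 3, with 14 of 18 differences negative and 1 positive, and the fetal-like list 2.35 and 1.91, with 11 of 21 negative and 4 positive. In the list of cyclic AMP signalling and CREB response the medians were 0.68 and 0.45, with 9 of 43 differences negative, 2 positive and 32 not called. F3 changed by 3.19 ± 0.08 and 1.73 ± 0.08 (-1.47 ± 0.11), Dusp1 by 3.93 ± 0.15 and 2.51 ± 0.15 (-1.43 ± 0.25) and Ptgs2 by 3.42 ± 0.12 and 2.15 ± 0.14 (-1.27 ± 0.21). Glycolysis and hypoxia genes had a median of 0.21 at day 1 and -0.18 at day 3, with 20 of 31 differences negative and 3 positive. Pfkfb3 rose at day 1 (0.92 ± 0.11) and fell at day 3 (-1.37 ± 0.09), a difference of -2.28 ± 0.14.

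**Figure D4:**
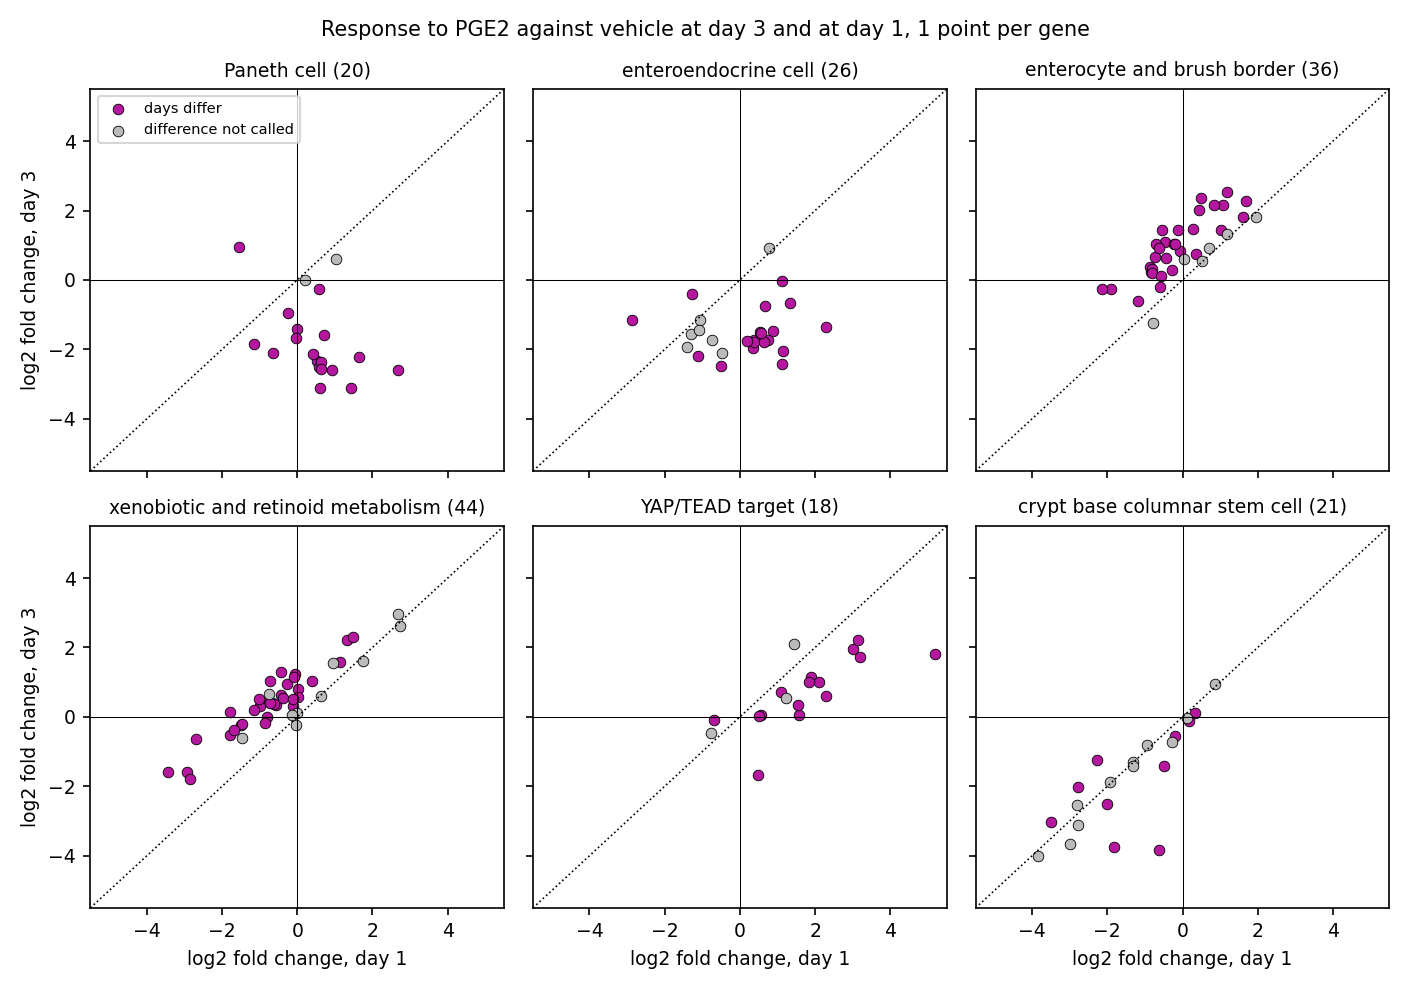
Each point is a tested member of the list named above its panel, placed by the log2 fold change of PGE2 over vehicle at day 1 (horizontal) and at day 3 (vertical). The dotted line marks equal responses, and coloured points are genes whose difference between days passed the test. Most Paneth and enteroendocrine points lie below the line, most enterocyte and xenobiotic points above it, and most YAP/TEAD points below it but above 0.

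AA, the precursor of PGE2, was given at 25 µM against 50 nM of PGE2, so the doses differ, and both groups at day 3 were set side by side. PGE2 was higher than AA for 3016 genes (20.3%) and lower for 2695 (18.1%), and this comparison uses the same PGE2 libraries as the one with vehicle. Which direction had more calls depended on the processing: 3373 were higher and 2095 lower when scaled by total counts alone, but 2763 and 2996 with DESeq2's size factors, 2497 and 3178 with no filter on low counts, and 2640 and 3138 under the stricter filter. Leaving out AA replicate 3 gave 2340 and 2900. Lgr5 was at 40.5 ± 2.33 CPM with AA and 16.0 ± 2.84 CPM with PGE2 (log2 difference -1.34 ± 0.10, adjusted p = 2.3e-10), and Olfm4 at 257 ± 26.2 and 68.1 ± 9.61 CPM (-1.92 ± 0.10). Msln was at 456 ± 26.5 CPM with AA and 992 ± 22.4 CPM with PGE2 (1.12 ± 0.05), Mucl3 at 8.29 ± 0.259 and 75.7 ± 4.79 CPM (3.19 ± 0.09) and Muc2 at 20.4 ± 5.38 and 80.8 ± 2.68 CPM (1.99 ± 0.19). Ttyh1, a membrane protein of the tweety family, was at 0.840 ± 0.223 and 10.8 ± 0.518 CPM (3.70 ± 0.23). Lyz1 was at 373 ± 37.0 and 356 ± 11.9 CPM, a log2 difference of -0.07 ± 0.07 that did not pass (adjusted p = 0.51), and the differences of Alpi (-0.00 ± 0.07, adjusted p = 0.98) and Chga (0.13 ± 0.15, adjusted p = 0.54) did not pass either. Their lists did contain called genes: of 36 enterocyte genes 19 were higher with PGE2 than with AA and 12 lower, and of 20 Paneth genes 3 were higher and 8 lower. Of 26 enteroendocrine genes 2 were higher, 3 lower and 21 not called.

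By list, goblet genes were higher with PGE2 than with AA in 15 of 19 cases and lower in 0, gastric genes in 14 of 17 and 1, fetal-like genes in 18 of 21 and 0, and basement membrane genes in 21 of 27 and 0. Proliferation genes were lower with PGE2 in 28 of 28 cases, with Top2a at 493 ± 26 CPM with AA and 373 ± 3.43 CPM with PGE2 (-0.40 ± 0.05). Glycolysis and hypoxia genes were lower in 27 of 31 cases and higher in 3, with Egln1 at 75.6 ± 2.72 and 38.5 ± 2.69 CPM (-0.97 ± 0.07). Fatty acid oxidation genes were lower in 21 of 34 and higher in 5, with Acot1 at 24.6 ± 0.704 CPM with AA and 8.43 ± 0.318 CPM with PGE2 (-1.55 ± 0.09). NRF2 and glutathione genes were lower in 20 of 35 and higher in 3, with Mgst1 at 113 ± 1.77 and 62.2 ± 1.10 CPM (-0.86 ± 0.06). In the enteroendocrine list, 21 of 26 differences were not called.

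**Figure D5:**
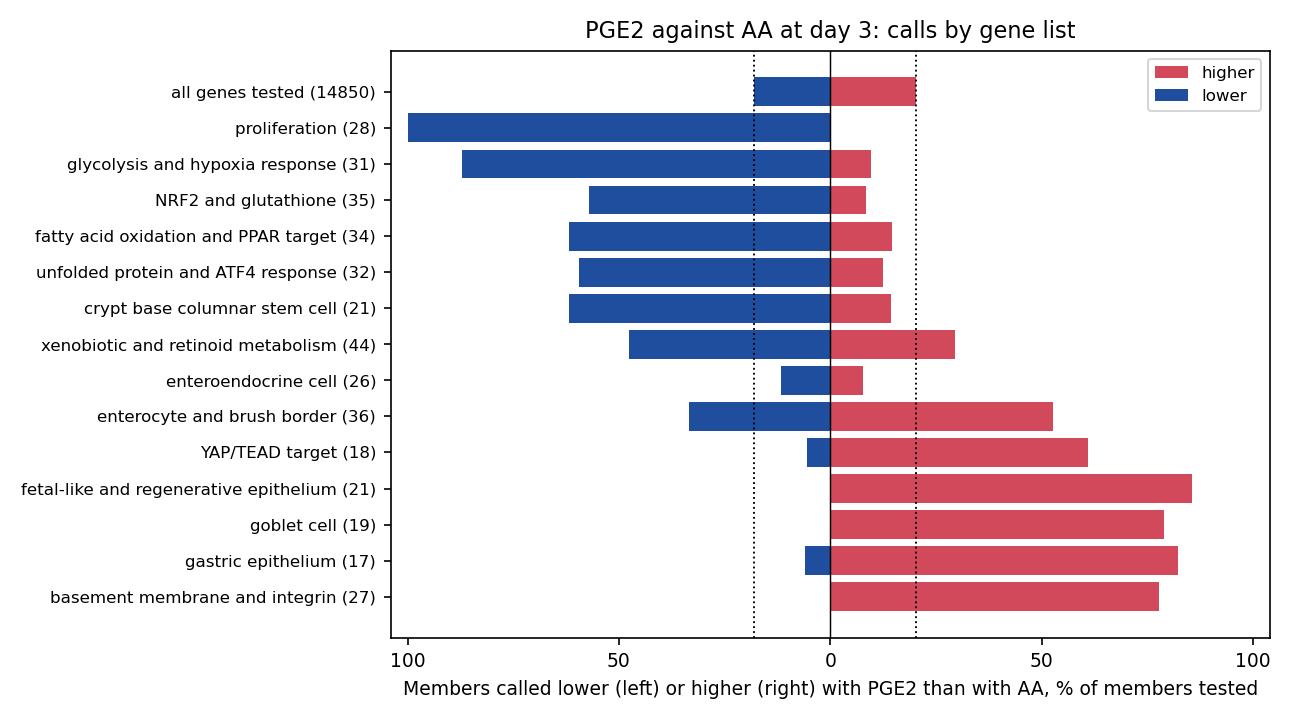
Bars give the share of each list's tested members (number in parentheses) called higher (right) or lower (left) with PGE2 than with AA at day 3, and the dotted lines mark the shares over all genes tested, 20.3% and 18.1%. All 28 proliferation genes lie on the left, and goblet, fetal-like and basement membrane genes have no bar there.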

How the data were processed

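Per the labels, Trizol was used to extract RNA, and the library kit was NEBNext Ultra II, which is directional. Whole-number read counts per gene were deposited by the authors. STAR and cutadapt are named in the submitters' processing notes, with DESeq2 and limma 3.46. The sources used here do not give the strand setting of the counting. These notes name the human build GRCh38.p6, while the gene IDs of the deposited counts are mouse Ensembl IDs, of which 55144 of 55385 had a symbol.

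From the counts, genes were kept by edgeR's filterByExpr, scaled by TMM and tested with edgeR 4.0.16 (robust quasi-likelihood test, R 4.3.3) over 18 libraries of days 1 and 3, with 1 mean per group and 12 residual degrees of freedom. P-values were adjusted by the Benjamini-Hochberg method over 14850 genes, with a threshold of 0.05. The script was tested on simulated data in which only a small share of the genes was changed. That run does not show how the scaling behaves where most genes change, as here. Replicate libraries of a group at day 3 with PGE2 or vehicle differed by more than sampling noise (chi-square per degree of freedom 2.12 to 16.5), and replicate 2 stood apart most in both groups.

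The members and gene lists were chosen with earlier results of these data known, so list counts and medians are descriptions. Genes named were the 14 largest rises and 14 largest falls past the threshold whose groups did not overlap and whose mean log2 CPM was 1 or more, leaving out predicted genes, the 4 members of each list with the smallest p where at least 3 were called, a panel of marker and pathway genes, and the 4 largest in each direction of the difference between days and of PGE2 against AA. Some genes that the rule names are not reported here. Another 25 genes were chosen after their values were seen: Bmp7, Ccn1, Fzd2, Gkn2, Gkn3, Hspg2, Id1, Id3, Itgb4, Krt5, Muc5ac, Neurog3, Pck1, Pde10a, Pou2f3, Prom1, Ptges, Sfrp5, Slc2a5, Snap25, Sox9, Spdef, Wnt4, Wnt7b and Wnt9b. Alternatives covered scaling, filters, DESeq2 1.42.0, limma-voom (limma 3.58.1), the libraries in the fit, a replicate block, ribosomal and mitochondrial RNA, and each library left out in turn.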

Additional observations from a re-analysis of the deposited data

Results flagged for a closer look

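Of the 215 genes named, 56 had a response to PGE2 at day 3 that differed from that at day 1 by at least 2-fold, with an adjusted p under 0.05 in edgeR's test of the difference. The difference was negative for 32 and positive for 24, and 14 genes moved in opposite directions on the 2 days. Over all 14850 genes tested, 358 negative and 325 positive differences reached that size, and the rule for naming genes takes in some of the largest of them. All values here are log2, day 3 minus day 1, unless stated otherwise.

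Negative values among Paneth genes were those of AY761184 (-4.11), Defa3 (-3.85), Defa30 (-3.52), Defa22 (-3.21), Defa17 (-2.85) and Lyz1 (-1.41), of which the defensin genes and AY761184 share sequence. Enteroendocrine genes with negative values were Tac1 (-3.54), Chgb (-3.20), Chga (-2.36) and Gip (-1.97), and the tuft cell factor Pou2f3 stood at -1.14. Upk3b, a uroplakin, had -4.16, but with a standard error of 1.17, and Scn3a, a sodium channel, had -3.75.

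Genes that fell further at day 3 were Igfbp4 (-3.22), Rnase1 (-3.01), Fzd2 (-2.13), Fras1 (-1.97), Nrn1 (-1.93), Dpysl5 (-1.60), Esrrg (-1.17) and Aldh1l2 (-1.12). Genes that were less raised at day 3 were Tgm1 (-1.65), F3 (-1.47), Dusp1 (-1.43), Ptgs2 (-1.27), Anxa1 (-1.09), Nr4a1 (-1.05), Ccn2 (-1.05), Cldn18 (-1.01) and Ly6a (-1.01). Ccn1, raised at day 1 and not called at day 3, had -1.51, and Pfkfb3 had -2.28.

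Positive values were found for the enterocyte genes Alpi (1.60), Fabp1 (1.63), Mep1b (1.32), Apoa1 (1.07) and the factor Isx (1.81). Enzymes and carriers of lipids and xenobiotics were Aldh1b1 (1.86), Hpgd (1.80), Cyp4f14 (1.48), Slc27a2 (1.42), Ephx2 (1.27), Ces2a (1.09), Mgst1 (1.07) and Alox5 (1.92). Goblet and gastric genes were Zg16 (3.48), Gkn1 (3.35), Tff1 (2.59) and Agr2 (1.14). The others were Tek (3.63), Proz, a plasma protein related to clotting factors (2.66), Neurog3 (1.71), Pigr (1.59), Fut2 (1.56), H2-Q2 (1.24) and Oas1a (1.10). Some positive values belong to genes that were still lower with PGE2 than with vehicle at day 3. Their log2 fold changes at day 3 were -1.58 (Aldh1b1), -1.40 (Slc27a2), -1.78 (Ces2a), -0.95 (Mgst1), -0.27 (Fabp1), -1.41 (Pigr) and -1.16 (Neurog3).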

How the results depend on the processing

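Over 15 alternatives, rises with PGE2 at day 3 numbered 3885 to 4413 and falls 3956 to 4929, and at least 2-fold rises 1256 to 1898 and falls 699 to 1097. Leaving out 1 library at a time gave 3885 to 4400 rises and 4064 to 4515 falls. Positive differences between days numbered 1426 to 2221 and negative ones 1277 to 2015, and genes higher with PGE2 than with AA 2327 to 3373 and lower 2095 to 3178. With the replicate block there were 4324 rises and 4513 falls. Without the block there were slightly fewer, 4287 and 4465. Deviations of same-numbered vehicle and PGE2 libraries of day 3 correlated at 0.0049, 0.0142 and -0.00489. Whether a replicate number shared an effect was not tested. These values cannot tell whether the libraries were prepared in pairs. Over 215 named genes, 3204 of 3221 gene and setting combinations kept their direction and side of the threshold, 15 lost the call, 2 gained it (Cftr and Pde4d) and 0 reversed; the causes were not tested. Of 585 counts of list members, added after seeing the data, 580 stayed within 1.5 times, and 5 moved: immune markers called higher, 1 under the stricter filter, and endothelial and neural markers called lower, 1 under the DESeq2 Wald test, under the replicate block, and without PGE2 replicate 1 or replicate 3. Genes with too few counts for the filter, such as Dclk1, were not tested at this depth.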

Other observations

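Some genes that the rule named belong to lists described above and are given here. Kit, a receptor tyrosine kinase listed here as an immune marker, fell from 17.5 ± 1.39 to 7.78 ± 0.607 CPM (log2 fold change -1.17 ± 0.13). Gpam, which starts glycerolipid synthesis, went from 119.6 ± 4.48 to 47.1 ± 1.49 CPM (-1.34 ± 0.06), and Srxn1, a sulfiredoxin of the NRF2 response, from 50.8 ± 2.74 to 99.2 ± 4.42 CPM (0.97 ± 0.05). In sterol synthesis, Dhcr7 went from 107 ± 2.06 to 72.7 ± 3.08 CPM (-0.56 ± 0.06) and Hsd17b7 from 72.9 ± 2.59 to 98.5 ± 0.608 CPM (0.43 ± 0.05).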
